A study of Mus musculus with 39 samples.

Results

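The genes described here are the 10 core circadian clock genes Arntl, Clock, Per1, Per2, Per3, Cry1, Cry2, Nr1d1, Nr1d2 and Dbp. They were taken by name, as the probes that carry one of these gene symbols, which gave 17 of the 40628 probes and 10 of the 29411 gene symbols on the array. Where a gene had several probes, the brightest on average was used. All 10 genes passed the filter on dim probes. RNA labelled as from macrophages infiltrating brown fat (stromal vascular cells, SVCs) of C57BL/6J mice was hybridised to 39 one-colour Agilent mouse arrays. Mice were weaned at 3 to 4 weeks of age, kept under a light and a dark phase of 12 hours each and split into 5 diet groups of 30 animals. LFC mice had a diet with 10% of calories from fat (10 arrays), and HFC mice a diet with 60% of calories from fat and more sucrose (11 arrays). HF5, HF20 and HF75 mice had the HFC diet with 5, 20 or 75 µg of the plant formulation KAL-1 (6 arrays each). There was 1 array for each diet and time label. LFC and HFC were sampled at Day 1, 6, 10 and 14 and from Week 0 on, and the KAL-1 groups from Week 3 to Week 18, with no LFC array at Week 6. Weeks were counted from Day 14, so Day 14 and Week 0 name the same day. The hour at which mice were killed is not in the labels, nor is the number of animals behind an array, so all errors below measure the spread between arrays of different time labels.

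The circadian clock is a transcription loop that runs in nearly every cell, brown fat and macrophages included. ARNTL (BMAL1) and CLOCK form a pair that binds E-box sequences and drives the Per, Cry, Nr1d and Dbp genes. PER and CRY proteins then repress the pair, NR1D1 and NR1D2 (REV-ERB) repress Arntl through RORE sequences, and DBP acts on D-box sequences in genes such as the Per genes. Arntl RNA therefore peaks at nearly the opposite hour of the day to Dbp, Nr1d1 and Per RNA, while Clock RNA cycles weakly in most tissues, so that tissue taken at different hours differs in all of them.

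Promoter sequence is shown for the genes whose window holds one of the letters through which the loop is wired, and for Dbp, one side of the pair examined first below. The sequences are RefSeq windows of GRCm38.p6, from 250 bases before an annotated start to 50 after it, and 9 of the 10 genes matched, with 13 windows. The motifs were searched on both strands. The E-box CACGTG was in 7.15% of all 32851 promoters and in the windows of Cry1 and Per1, the D-box TTATGNAAC in 0.603% and in those of Per1 and Per3, and the RORE letters ANTNGGTCA in 2.24% and in that of Arntl. Capitals mark the matches. The stretches are Per1 chr11:69098699-69098948 (plus strand), Cry1 chr10:85185055-85185304 (minus), Per3 chr4:151044666-151044915 (minus) and Dbp chr7:45704997-45705246 (plus), each the 250 bases before a start, and for Arntl the 30 bases chr7:113207529-113207558 (plus), which lie after its start.
Per1: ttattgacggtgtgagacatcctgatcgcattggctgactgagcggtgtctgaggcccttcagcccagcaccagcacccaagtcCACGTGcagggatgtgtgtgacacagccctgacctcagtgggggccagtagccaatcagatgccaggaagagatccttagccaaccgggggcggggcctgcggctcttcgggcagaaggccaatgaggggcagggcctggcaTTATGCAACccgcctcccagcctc
Cry1: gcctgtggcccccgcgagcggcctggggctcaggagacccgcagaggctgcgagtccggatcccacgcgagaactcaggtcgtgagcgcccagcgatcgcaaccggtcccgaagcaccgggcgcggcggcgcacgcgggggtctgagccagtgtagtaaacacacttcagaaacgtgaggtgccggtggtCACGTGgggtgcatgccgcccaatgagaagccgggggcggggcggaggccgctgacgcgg
Per3: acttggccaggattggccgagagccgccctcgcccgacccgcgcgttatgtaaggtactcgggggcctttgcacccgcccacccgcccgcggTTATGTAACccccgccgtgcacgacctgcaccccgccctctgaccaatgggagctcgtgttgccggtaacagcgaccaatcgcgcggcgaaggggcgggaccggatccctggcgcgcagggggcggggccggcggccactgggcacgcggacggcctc
Dbp: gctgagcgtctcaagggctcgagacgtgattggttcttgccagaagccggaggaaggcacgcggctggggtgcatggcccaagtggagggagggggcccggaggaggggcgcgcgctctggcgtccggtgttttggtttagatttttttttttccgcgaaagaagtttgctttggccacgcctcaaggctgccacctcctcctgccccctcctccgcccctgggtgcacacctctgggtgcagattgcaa
Arntl: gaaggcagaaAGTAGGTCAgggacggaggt
The E-box of Per1 lay at bases -166 to -161 from its start and its D-box at -24 to -16. The E-box of Cry1 lay at -60 to -55, the D-box of Per3 at -158 to -150 and the RORE letters of Arntl at 29 to 37. A match describes the letters only, and the Dbp window held none of the 3 motifs. The expression values below give no reading of binding at these sequences.

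Levels are given on a log2 scale, as the processed signal of the probe minus the 75th percentile of its array, so 1 unit is 2-fold and the level of one gene is not set against that of another. Arrays differed in brightness, with 75th percentiles of 18.1 to 3974, and 31.2% to 98.0% of spots were well above background. On 3 arrays over 10% of spots were marked as outliers by the scanner software and dropped, up to 71.4% on HF20 Week 15, which left that array without a value for Arntl, Per2, Per3, Cry1, Cry2 and Nr1d2, and HF5 Week 12 without Arntl. Arrays were scanned on 18 dates, none of which held more than 1 time label, so scan date and time label cannot be told apart over the whole series, and HFC and LFC shared a date at 6 time labels. Titles of 9 arrays carry BA or BAT, letters that the labels do not explain, so it is not stated whether these arrays hold the same cell fraction as the rest. Of the markers of the labelled cells, 5 of 6 macrophage genes (Cd68, Emr1, Csf1r, Mrc1 and Cd14, with Itgam on 28 arrays) were well above background on all 39 arrays. The same held for 4 of 6 brown adipocyte genes, among them Ucp1, and 5 of 6 general adipocyte genes, among them Adipoq and Fabp4, so adipocyte RNA was present on every array. Its level varied widely, with the mean log2 level of the brown adipocyte genes from -3.34 to 5.46 over the arrays. That of the macrophage genes ran from -1.48 to 2.65. Fewer cells of a type and less RNA per cell cannot be told apart in such samples.

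The clock genes varied widely between arrays and mostly not by time label. Arntl, the positive limb of the loop, ranged from -4.60 on HF20 Week 12 to 0.21 on HF5 Week 6, with a median of -1.60 over 37 arrays, a 28.1-fold range. In LFC it was highest at Day 14 (-0.65), and in HFC at Week 0 (-0.16) and Day 14 (-0.21). Its lowest values came from single arrays of 4 diets, namely HF20 Week 12, HF5 Week 9 (-4.25), HFC Week 3 (-4.05, not well above background) and HF75 Week 15 (-4.00). Clock, the partner of ARNTL, was well above background on all 39 arrays and had the smallest SD of the 10 genes (0.68). It lay between -2.04 (HF20 Week 15) and 1.58 (LFC Week 15), with a median of 0.28.

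Dbp, an output gene of the clock that codes for a PAR bZIP factor, was well above background on all 39 arrays and ranged from 0.85 on HF20 Week 15 to 6.44 on LFC Day 1, with a median of 4.59. Nr1d1, which codes for REV-ERB alpha, had the widest range, from -4.36 (HF20 Week 15) to 2.72 (LFC Day 6), with a median of -0.22. Nr1d2, its paralog, lay between -1.39 (HF5 Week 12) and 1.94 (HF75 Week 15). HF20 Week 15, the array with the most dropped spots, held the lowest value of all 4 clock genes that it measured (Dbp, Nr1d1, Clock and Per1).

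Among the repressors, Per1 ranged from -0.93 to 3.36 (median 1.58), Per2 from -4.19 to 1.31 (median -0.89) and Cry2 from -2.50 to 0.68 (median -0.37). Per3 and Cry1 were dim: Per3 was well above background on 16 arrays and Cry1 on 20, against 34 to 39 for the other 8 genes. Per3 lay between -6.95 and -1.85, and Cry1 between -5.56 and -1.03. None of the 10 probes was saturated on any array. The spread within a time label was close to that over all arrays for most genes. The SD of Arntl was 1.13 within time labels and 1.17 over all arrays, that of Dbp 1.16 and 1.08, and that of Nr1d1 1.21 and 1.26. Cry1 was the gene with the greatest gap, at 0.75 within time labels and 0.99 over all.

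**Figure D1:**
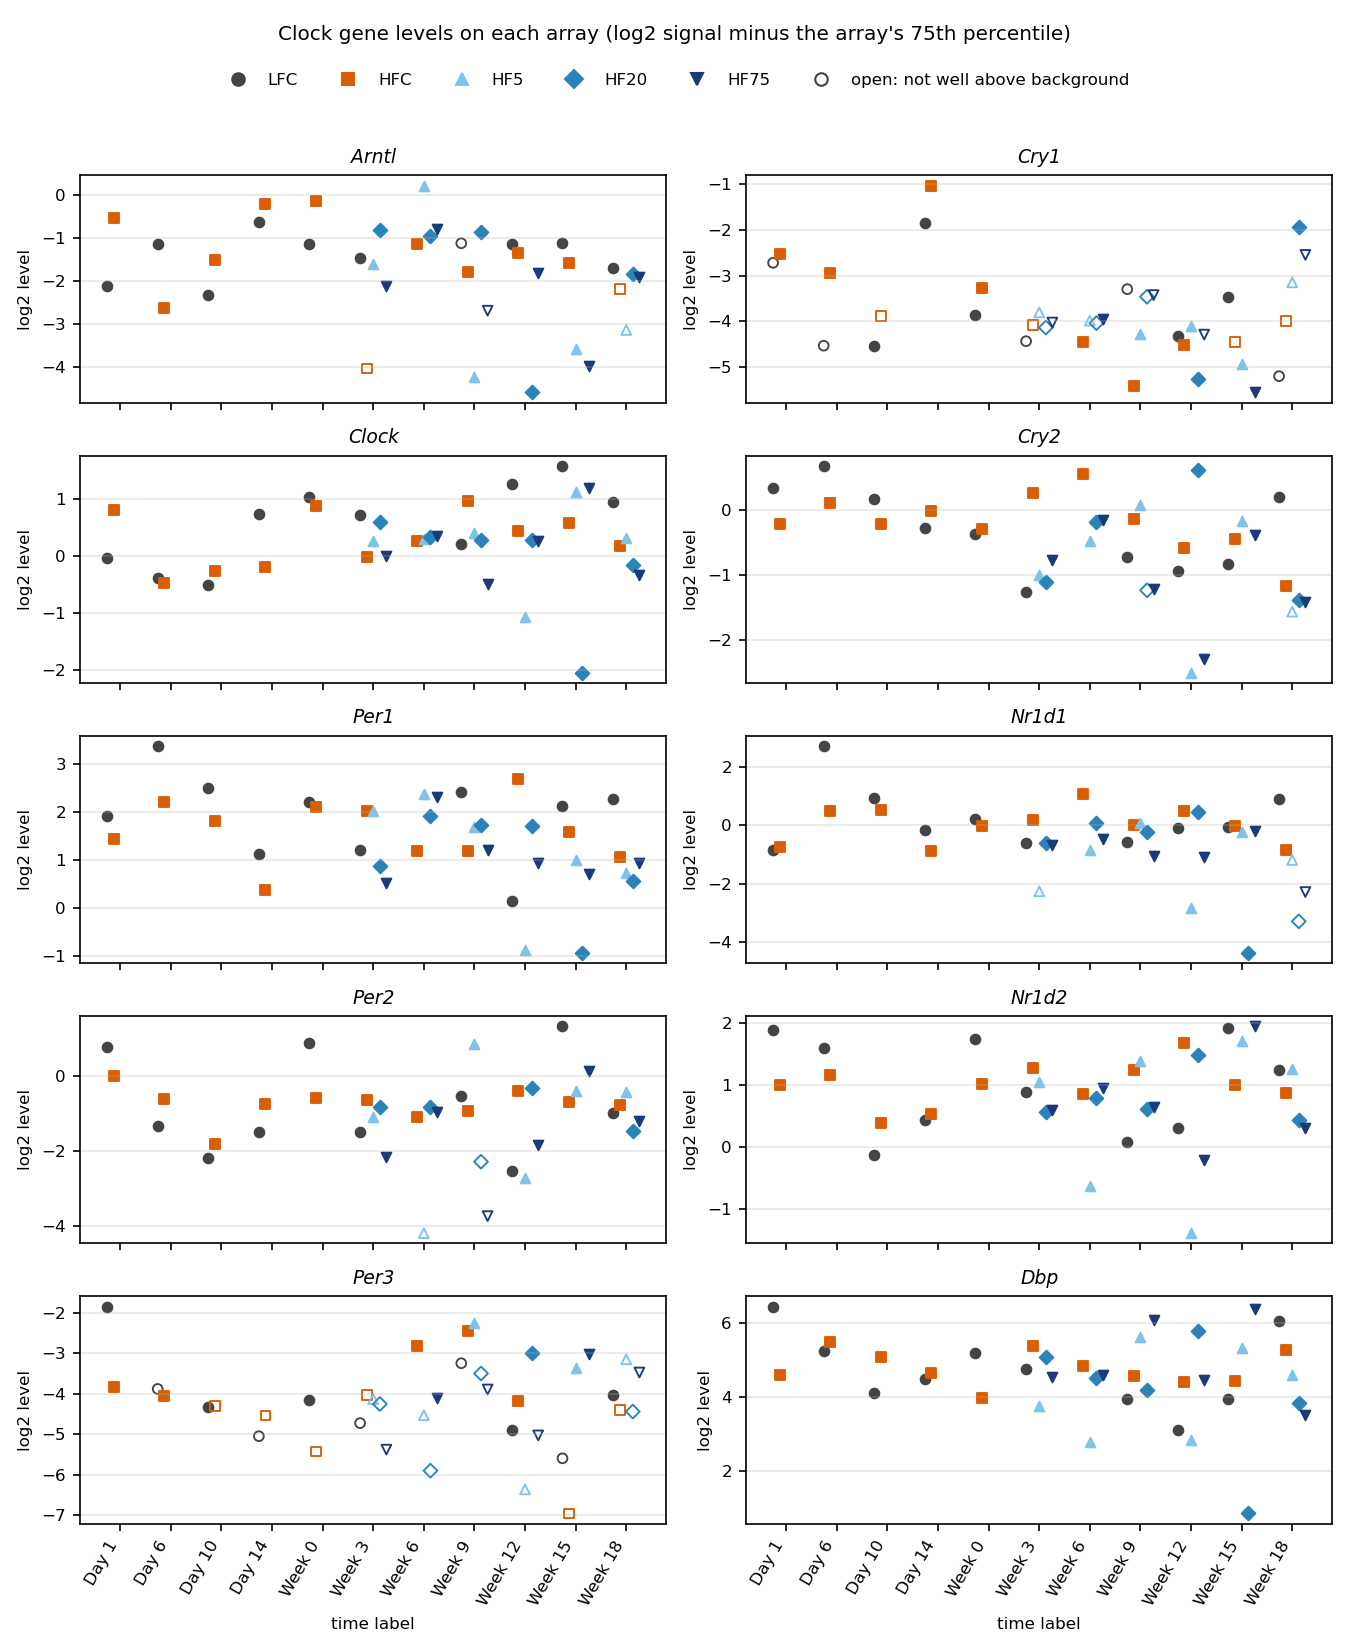
Log2 level (signal minus the array's 75th percentile) of the 10 clock genes on each array against its time label, with a panel a gene and a marker a diet; open markers are values not well above background. Arntl and Dbp scatter within a time label as widely as between labels, while Cry1 stands highest at Day 14 in both diets measured there (-1.85 and -1.03).

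The phase relation was first examined with the pair that has the clearest opposite phase in a running clock, Arntl and Dbp. Over the 37 arrays with both values, arrays low in Arntl were high in Dbp (Pearson r = -0.58, p = 0.00013, adjusted p = 0.000975; Spearman rho = -0.51, adjusted p = 0.00866). P-values of pairs are two-sided permutation tests with 100000 resamples, adjusted by Benjamini-Hochberg over the 45 pairs of the 10 genes. They treat arrays as independent, which arrays of 1 time label may not be. The arrays lowest in Arntl show the relation directly. On HF20 Week 12, HF5 Week 9, HFC Week 3, HF75 Week 15 and HF5 Week 15, Arntl was -4.60, -4.25, -4.05, -4.00 and -3.58 and Dbp was 5.79, 5.63, 5.38, 6.39 and 5.31, each above the Dbp median of 4.59. All of these arrays but HFC Week 3 carry BA or BAT in the title, and the Arntl value of HFC Week 3 was not well above background. The part of cell fraction in these values was not tested. At the other end, HF5 Week 6 had the highest Arntl (0.21) and, at 2.78, the lowest Dbp of these 37 arrays.

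The relation held when time label was taken out. It was -0.67 after centring on time labels, -0.73 after centring on scan dates (31 arrays) and -0.65 after centring on diets. Within Week 12, on 1 scan date, Arntl was -1.15 in LFC, -1.82 in HF75, -1.37 in HFC and -4.60 in HF20, and Dbp was 3.10, 4.44, 4.39 and 5.79. The array lowest in Arntl was the highest in Dbp there, as at 4 of the 6 time labels with at least 4 arrays. It was not so at Week 9, where HF75 had the highest Dbp (6.07), nor at Week 18, where LFC had both the highest Arntl (-1.71) and the highest Dbp (6.05). Without the arrays farthest from the Dbp median (HF5 Week 6 and LFC Day 1) r was -0.56, and without the BA or BAT arrays it was -0.48 (28 arrays, adjusted p = 0.0386). Without values not well above background it was -0.57 (32 arrays).

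Within diets, HFC showed the relation (r = -0.76, 11 arrays, permutation p = 0.00591, adjusted over the 3 diets with enough arrays 0.0177; rho = -0.65, adjusted p = 0.102; r = -0.59 without HFC Week 3 and HFC Day 6). In LFC r was -0.39 (10 arrays, permutation p = 0.264, rho = -0.56) and -0.08 without LFC Week 12 and LFC Day 1. In HF75 r was -0.74 (6 arrays, exact permutation p = 0.0861, rho = -0.60) and turned to 0.35 without HF75 Week 9 and HF75 Week 15, so it rested on those arrays. Whether the diets differed in r was not tested.

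The other genes followed the opposite phase in part. Beside Dbp, Arntl opposed Per3 (r = -0.45, adjusted p = 0.017) and Nr1d2 (r = -0.42, adjusted p = 0.0238), the latter with a Spearman adjusted p of 0.0846. With normexp background correction the r of Arntl with Per3 turned to 0.69 (adjusted p = 9e-05), while that with Nr1d2 was -0.79. The Nr1d2 call depended on the setting. It was lost without the BA or BAT arrays (r = -0.25, adjusted p = 0.328). It was also lost with quantile normalization (r = -0.31, adjusted p = 0.122) and with median scaling (r = -0.17, adjusted p = 0.435). After centring on time labels it held (r = -0.49, adjusted p = 0.0283). Arntl had no clear relation to Nr1d1 (r = -0.04), although the NR1D1 protein represses Arntl and Nr1d1 moved with Dbp. Its r with Per1 was 0.15, with Per2 -0.26 and with Clock 0.11. In the main setting Clock did not side with Arntl but with some of the genes that the index below sets it against. The r of Clock with Arntl depended on the setting. It was 0.45 without the BA or BAT arrays (28 arrays, adjusted p = 0.0516) and -0.46 with normexp background correction (adjusted p = 0.0146). Clock had r = 0.51 with Nr1d2 (adjusted p = 0.00575, rho = 0.43). With Per2 it had r = 0.44 (adjusted p = 0.017, rho = 0.42, but r = -0.18 with normexp background correction). Its r with Dbp was 0.37 (adjusted p = 0.0467), but rho was 0.09 and r was 0.11 without LFC Day 1 and HF20 Week 15, so that relation rested on those 2 arrays.

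**Figure D2:**
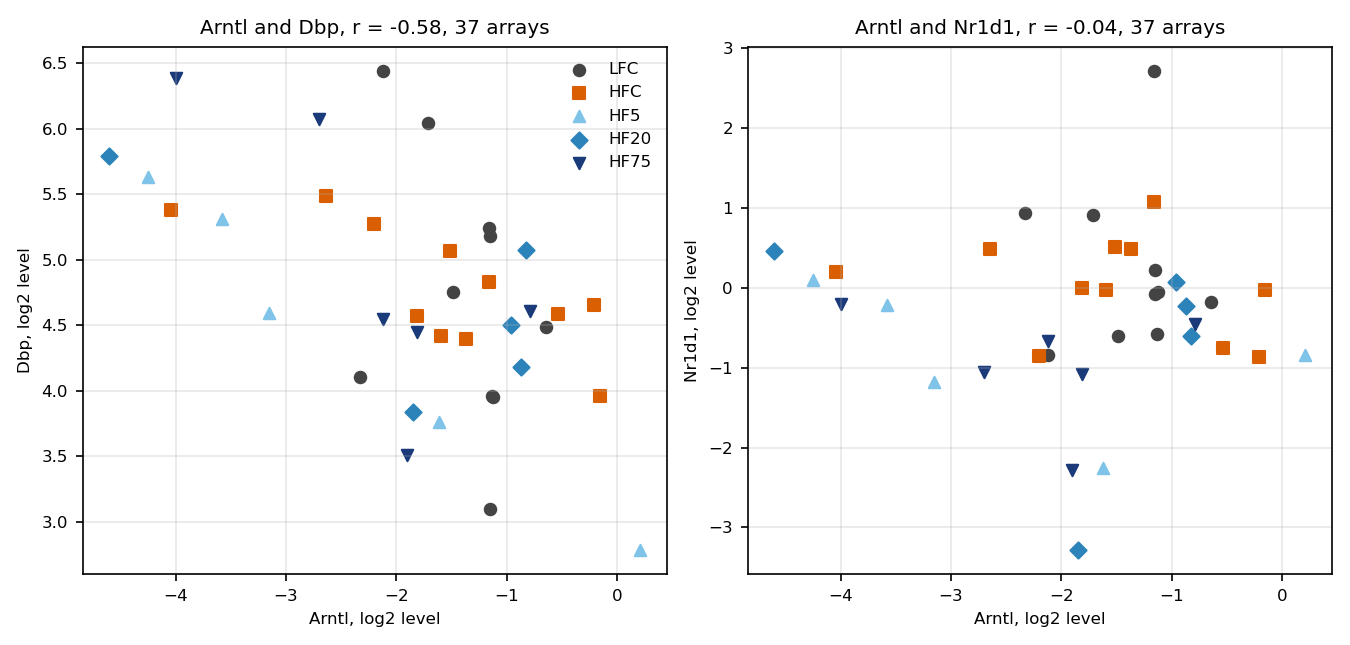
Log2 level of Dbp (left) and of Nr1d1 (right) against that of Arntl, with a point for each of 37 arrays and a marker a diet. Dbp falls as Arntl rises (r = -0.58), while Nr1d1 shows no such slope (r = -0.04).

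Of the genes that ARNTL and CLOCK drive, Dbp and the Nr1d and Per genes mostly rose and fell together in the main setting. The Cry genes are described separately below. Of the 15 pairs among Dbp, Nr1d1, Nr1d2, Per1, Per2 and Per3, 10 had a positive r past the threshold, where 20.1% of all pairs of other genes had a positive r of the size of the weakest call. The count was 4 without the 3 arrays with over 10% of spots dropped, 4 without Week 12, 5 without the BA or BAT arrays, 3 with the mean of all probes of a gene and 15 with median scaling. Nr1d2 and Dbp had r = 0.66 (38 arrays, permutation p = 1e-05, the smallest that these permutations give, adjusted p = 0.000112, rho = 0.58), and r = 0.58 without HF5 Week 6 and LFC Day 1. It was the only pair past the threshold under all 24 alternative settings, with r from 0.58 to 0.83. Per2 and Nr1d2 had r = 0.75 (adjusted p = 0.000112, rho = 0.77), and r = 0.70 without HF5 Week 6 and HF5 Week 12. With normexp background correction their r fell to 0.16 (adjusted p = 0.421). Per1 and Nr1d1 had r = 0.70 (adjusted p = 0.000112, rho = 0.59), and r = 0.60 without HF20 Week 18 and HF20 Week 15. Per3 and Dbp had r = 0.50 (adjusted p = 0.00576, rho = 0.53), but r turned to -0.62 (adjusted p = 0.000164) with normexp background correction, and the direction of this dim gene depends on that choice. Nr1d1 and Dbp had r = 0.58 (adjusted p = 0.00109), but rho was 0.38 (adjusted p = 0.0519) and r fell to 0.34 (adjusted p = 0.107) without the 3 arrays with over 10% of spots dropped.

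The Cry genes went separate ways. Cry2, a repressor of the loop, rose with Nr1d1 (r = 0.74, adjusted p = 0.000112, rho = 0.72, and r = 0.73 without LFC Day 6 and HF20 Week 18) and with Per1 (r = 0.58, adjusted p = 0.000975). Cry1, whose RNA peaks later than that of the Per genes, opposed Nr1d1 (r = -0.45, adjusted p = 0.017, rho = -0.52). That call was lost without values not well above background (r = -0.25, 18 arrays, adjusted p = 0.421) and with quantile normalization (r = -0.13, adjusted p = 0.546). Cry1 moved with Arntl (r = 0.39, adjusted p = 0.0335, Spearman adjusted p = 0.0846; 0.29 without LFC Day 14 and HFC Day 14). Cry1 and Cry2 had r = -0.16.

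In all, 24 of the 45 pairs (53.3%) passed the threshold by Pearson r, 20 positive and 4 negative, and 15 passed it by both r and rho. Such relations were common on these arrays. The shares above and here are over all pairs of 12552 other genes that were well above background on at least 30 arrays. Of these pairs 37.4% had an r at or beyond the 0.37 of the weakest pair called here, 20.1% positive and 17.3% negative. Among the clock genes the positive pairs made up 44.4% and the negative pairs 8.89% of the 45. The r of Arntl with Dbp lay outside the range from the 5th to the 95th percentile of 13459 other genes against Dbp (-0.30 to 0.36) and against Arntl (-0.47 to 0.42), and 0 of these genes had an r with Dbp as low as Arntl, while 38 had an r with Arntl as low as Dbp.

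**Figure D3:**
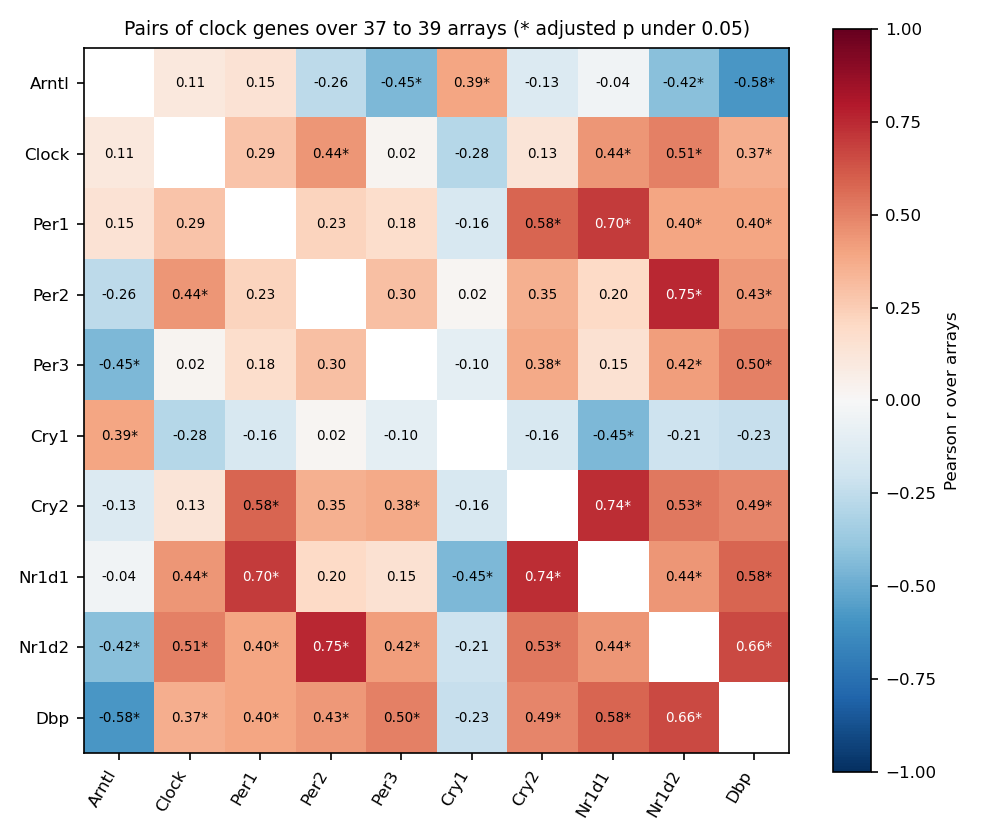
Pearson r over 37 to 39 arrays for each of the 45 pairs of clock genes, from blue (negative) to red (positive), with a star where the adjusted p is under 0.05. Arntl has a negative r with 6 genes and Cry1 with 7, and all pairs among Cry2, Nr1d1, Nr1d2 and Dbp are positive.

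Other measures of the arrays were set beside Arntl and Dbp in 24 relations. The general adipocyte list had r = -0.40 with Arntl (adjusted p = 0.0872) and r = 0.44 with Dbp (adjusted p = 0.0596; 0.21 without LFC Week 18 and HF20 Week 15). The mean log2 level of that list ran from 0.57 to 5.58 over all arrays. After regression of both genes on it, Arntl and Dbp still had r = -0.53 (adjusted p = 0.00506), and after regression on the 75th percentile of the array r = -0.54. The share of dropped spots had r = -0.62 with Dbp (adjusted p = 0.0247) but rho = -0.04, and r = -0.03 without HF5 Week 12 and HF20 Week 15. The macrophage list had r = 0.16 with Arntl and 0.0015 with Dbp. The endothelial list had r = 0.39 with Arntl (adjusted p = 0.0872) and 0.33 with Dbp. For the B cell list r was 0.39 with Arntl (adjusted p = 0.0872) and -0.23 with Dbp. Of the marker lists, only the general adipocyte list was regressed out. Apart from dropped spots with Dbp, none of the 24 relations passed the threshold. The part of harvest hour in these relations was not tested, since no label gives it.

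A phase index was formed for each of 37 arrays as the mean of Dbp, Nr1d1, Per1, Per2 and Per3 minus the mean of Arntl and Clock, so that a high value is the side on which the clock's targets stand high and its activators low. Being a score over the genes, it carries no test. Its genes did not weigh alike in it. The r of the index was -0.83 with Arntl, 0.76 with Dbp and 0.62 with the dim Per3. With Per2 it was 0.43, with Nr1d1 0.36, with Per1 0.25 and with Clock -0.28. The index ran from -1.14 on HF5 Week 6 to 3.12 on HF5 Week 9, a 19.1-fold range, with a median of 0.87. Its SD was 1.03 over all arrays and 1.04 within time labels. Some labels were tight and others wide. LFC and HFC stood at 1.997 and 2.26 on Day 6 and at -0.27 and -0.02 on Day 14, whereas the 4 arrays of Week 12 ran from -0.91 (LFC) to 3.09 (HF20).

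Day 14 and Week 0 name the same day and were scanned on different dates, with 1 array each in LFC and HFC. From Day 14 to Week 0 the index rose by 1.19 in LFC and fell by 0.33 in HFC. Cry1 was lower at Week 0 in both diets, with differences of -2.01 in LFC and -2.24 in HFC, and Per1 was higher by 1.09 and 1.72. Per2 was higher by 2.36 in LFC and by 0.16 in HFC. Arntl differed by -0.51 and 0.05. Samples of the same nominal day thus differed by up to 2.36 in a single clock gene.

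Arrays with BA or BAT in the title had a higher median index than the rest, which was not tested. The median was 1.69 (9 arrays, from -0.91 to 3.12) against 0.47 (28 arrays, from -1.14 to 2.61) in the rest, and the groups overlapped. Dbp had medians of 5.31 and 4.49, Arntl of -1.81 and -1.50, and the general adipocyte list of 4.40 and 2.84. The means of Arntl lay further apart than its medians, at -2.53 and -1.55. The part of adipocyte RNA in the index was not tested, and over all 37 arrays the list and the index had r = 0.25.

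**Figure D4:**
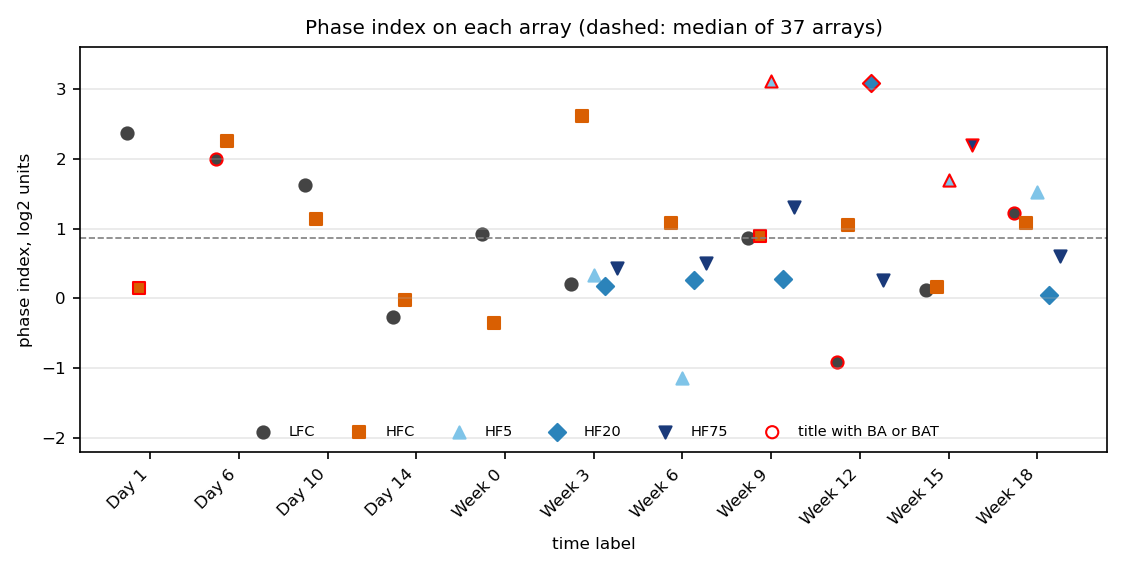
Phase index (mean of Dbp, Nr1d1, Per1, Per2 and Per3 minus mean of Arntl and Clock, log2 units) of 37 arrays against time label, with a marker a diet, a red edge for titles with BA or BAT and a dashed line at the median of 0.87. Arrays of 1 time label lie up to 3.99 apart (Week 12), and no diet lies on one side throughout.

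The phase index was set against 13459 other genes that were well above background on at least 30 arrays. These left out the clock genes above and the further clock genes below. Tef, one of the further clock genes left out, had r = 0.76 with the index, higher than any gene named here. Among the genes compared, those with the highest r were Tspan4 (0.63), Stub1 (0.62), Iah1 (0.61), Ttc23 (0.60) and Grcc10 (0.58). Those with the lowest were Rsf1 (-0.59), Lrrk2 (-0.58), Zdhhc13 (-0.56), Fam78b (-0.54) and 4930503L19Rik (-0.52). The range from the 5th to the 95th percentile over these genes was -0.34 to 0.39. Stub1 and Grcc10 also followed the general adipocyte list, with r of 0.63 and 0.69.

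Whether the clock genes differed between time labels was tested with limma's moderated F test in an additive fit of diet and time label. P-values of this fit and of the diet comparisons below are adjusted by Benjamini-Hochberg over 34043 probes. None of the 10 clock genes passed an adjusted p of 0.05, where 358 of all probes did (1.05%). At an unadjusted p of 0.05 it was 1 of 10 genes and 7112 probes (20.9%). That gene was Cry1 (F = 3.33, p = 0.00606, adjusted p = 0.104). In LFC, Cry1 ran from -5.20 through a median of -4.09 to -1.85, and in HFC from -5.42 through -3.99 to -1.03, and in both the highest value was at Day 14. The lowest in LFC was Week 18, where HF20 stood at -1.94. Cry1 passed without the BA or BAT arrays (adjusted p = 0.00762, where 9117 probes did) and without Week 9 (adjusted p = 0.0491), and had an adjusted p of 0.49 without Day 14. Dbp had the largest p of the 10 (F = 0.36, p = 0.953).

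HFC was compared with LFC at 10 shared time labels, which asks whether the high fat diet shifted the clock genes. No clock gene passed (0 of 10, against 0% of all probes), and 0 of 10 had an unadjusted p under 0.05, against 959 of 34043 probes. Fitted differences, HFC minus LFC, were between -0.39 and 0.20 with SE from 0.32 to 0.51, their median was -0.02, and that of all probes was 0.05. Per1 had the largest size (-0.39 ± 0.37 SE, p = 0.307) and was lower in HFC at 8 of 10 time labels. Clock (-0.30 ± 0.33) was lower at 7 of 10. Arntl (-0.29 ± 0.49) was lower at 6 of 10, from -2.56 at Week 3 to 1.58 at Day 1. Dbp (0.10 ± 0.51) was higher at 7 of 10, from -1.85 at Day 1 to 1.30 at Week 12. Nr1d1 (-0.31 ± 0.48) was split 5 to 5. At a single time label the genes thus often differed 2-fold or more, at 4 of 10 labels for Arntl and Per1 and at 0 for Clock, with no side held throughout.

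At single time labels, the differences of Arntl and Dbp had opposite signs at 7 of the 10 labels and the same sign at 3 (Day 10, Day 14 and Week 18). On Day 1, HFC minus LFC was 1.58 for Arntl, -1.85 for Dbp and -1.98 for Per3, and 0.09 for Nr1d1. At Week 3 it was 0.62 for Dbp, 0.80 for Nr1d1 and -2.56 for Arntl, where the Arntl of HFC was not well above background and sets only a bound. HFC and LFC were scanned on different dates at both labels. On Day 6 HFC was lower in Arntl (-1.48) and in Nr1d1 (-2.23) alike. At some labels only 1 of the HFC and LFC arrays carries BA or BAT in its title. It is the HFC array at Day 1 and Week 9, and the LFC array at Day 6, Week 12 and Week 18. The part of cell fraction in the differences at those labels was not tested. At Week 12, on 1 scan date, HFC was above LFC by 2.53 in Per1, 2.12 in Per2, 1.36 in Nr1d2 and 1.30 in Dbp, with 11.1% of spots dropped on that HFC array. The mean of the brown adipocyte genes was -3.34 on that HFC array and 4.26 on the LFC array, whose title carries BA or BAT. The mean of the macrophage genes was 2.65 and -1.37. The part of cell content in these differences was not tested. The index difference ran from -2.21 at Day 1 to 2.40 at Week 3 (which rests on the same dim Arntl value), with a mean of 0.08 ± 1.35 (SD, 10 time labels) and 6 labels higher. With 1 array for each diet and label, such a difference has no replicate.

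The KAL-1 groups were each compared with HFC at the 6 labels from Week 3 to Week 18, and all 3 comparisons use the same HFC arrays. No clock gene passed in HF5, HF20 or HF75 (0 of 10 each, against 0% of all probes). Under an unadjusted p of 0.05 there were 0, 1 and 0 genes, against 498, 907 and 1210 probes. The medians of the 10 differences were -0.47, -0.24 and -0.39, and those of all probes -0.03, -0.02 and 0.05. The gene under the unadjusted threshold was Nr1d1 in HF20.

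Nr1d1 had the largest dose differences. In HFC it ran from -0.87 through a median of -0.0013 to 1.07 over all 11 arrays. In HF5 it ran from -2.82 through -1.01 to 0.10, in HF20 from -4.36 through -0.42 to 0.46 and in HF75 from -2.28 through -0.86 to -0.20. The values of HF5 Week 3 (-2.25), HF5 Week 18 (-1.18), HF20 Week 18 (-3.28) and HF75 Week 18 (-2.28) were not well above background. All HFC values were well above it. The groups overlapped. Against HFC the fitted difference was -1.18 ± 0.59 (SE) in HF5 (p = 0.0545), -1.31 ± 0.59 in HF20 (p = 0.0349) and -0.94 ± 0.59 in HF75 (p = 0.124), with limma adjusted p of 0.998 or more. Nr1d1 was below HFC at 5, 6 and 6 of the 6 labels. Without the 3 arrays with over 10% of spots dropped the differences were -0.76, -0.59 and -0.88, and with normexp background correction -0.38, -0.81 and -0.33. In HF20 the difference was -0.72 without Week 15. Without the BA or BAT arrays they were -2.001, -1.79 and -1.38, with unadjusted p of 0.00321, 0.00434 and 0.0236 and adjusted p of 0.246, 0.581 and 0.713. The other Nr1d1 probes did not follow: their differences in HF5, HF20 and HF75 were 0.52, 0.46 and 0.67 for the one and 0.02, 1.15 and 0.83 for the other, and their r with the brightest probe was -0.04 and -0.33.

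None of the other 9 clock genes had an unadjusted p under 0.05 in these comparisons. Arntl differed from HFC by -0.85 ± 0.65 (SE) in HF5, -0.23 ± 0.65 in HF20 and -0.51 ± 0.61 in HF75. Its 5 values in HF5 were -1.62, 0.21, -4.25, -3.58 and -3.15 at Week 3, 6, 9, 15 and 18, the last not well above background and shared with Per3 and Cry1 as the lowest value on that array. Its 5 values in HF20 were -0.83, -0.96, -0.87, -4.60 and -1.85 at Week 3, 6, 9, 12 and 18. HFC, from -4.05 to -0.16, overlapped both. Dbp differed by -0.48 ± 0.64, -0.59 ± 0.64 and 0.30 ± 0.64. Cry2 was lower in HF75 at 5 of 6 labels (-0.67 ± 0.40, p = 0.108), and Per2 in HF75 was -0.80 ± 0.60, where the other Per2 probe gave 1.69 (p = 0.0681). The index was on average -0.06 ± 2.09 (SD, 5 labels) from HFC in HF5, -0.58 ± 1.62 (5 labels) in HF20 and -0.26 ± 1.40 (6 labels) in HF75.

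**Figure D5:**
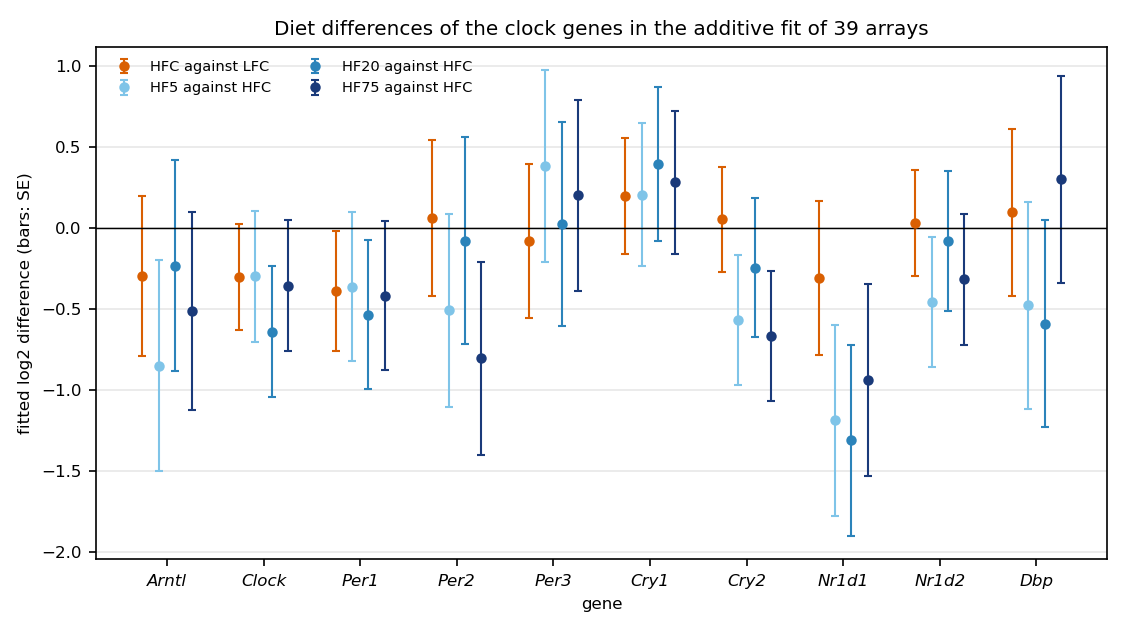
Fitted log2 differences of the 10 clock genes for HFC against LFC and for HF5, HF20 and HF75 against HFC, with bars of 1 SE. The differences of HFC from LFC lie between -0.39 and 0.20, and Nr1d1 has the lowest values in the KAL-1 groups (-1.18, -1.31 and -0.94), none with an adjusted p under 0.998.

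Several of the genes had probes that disagreed. The r of a further probe with the brightest one was 0.78 and -0.12 for Clock, -0.14 for Per2, 0.29 for Cry1 and 0.16 for Cry2. Arntl, Per1, Per3, Nr1d2 and Dbp had a single probe. The relations above that involve Clock, Per2, Cry1, Cry2 or Nr1d1 are those of their brightest probes.

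A list of 19 further clock genes, chosen with earlier results known, was read in the same way, and 18 passed the filter (Rorb did not). None passed in any diet comparison. Under an unadjusted p of 0.05 were Csnk1e, a kinase of the PER proteins, in HFC against LFC (-0.82), Bhlhe41, a repressor of E-box genes, in HF5 (1.95) and HF20 (1.80, from a probe well above background on 17 arrays, where its other probe gave -0.0065 and 0.0016), and the kinase Csnk1d in HF20 (-1.06). Across time labels Arntl2, a paralog of Arntl, passed (adjusted p = 0.0452). Its highest values were at Day 14, -1.96 in LFC and -1.20 in HFC, and HFC Week 0 was the lowest of all arrays at -6.83. Arntl2 was well above background on 14 arrays.

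Further genes of the list fell on both sides of the Arntl and Dbp relation. Tef, a PAR bZIP factor like Dbp, had r = -0.68 with Arntl and 0.66 with Dbp over arrays. Gm129 (Ciart), a repressor of the loop, had r = -0.61 and 0.52, and Hlf, another PAR bZIP gene, -0.59 and 0.39. Usp2, a gene for a deubiquitinase, had r = -0.45 with Arntl and 0.26 with Dbp. On the other side were the kinase gene Wee1, with r = 0.24 with Arntl and -0.29 with Dbp, and the repressors Bhlhe41 (-0.05 and -0.34) and Bhlhb2 (0.10 and -0.06). Nampt, the gene for an enzyme of NAD synthesis under clock control, had r = 0.53 with Dbp and -0.37 with Arntl. These r are descriptions over the same arrays and carry no p.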

How the data were processed

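RNA labelled as from brown fat stromal vascular cells was measured on 39 arrays and grouped by diet and time label. The Week 12 array named HF20 in its title and source name names only the high fat diet in its characteristics, and it was kept as HF20. Per the file headers, the deposited scanner files hold spot intensity with the background already subtracted by Agilent's extraction software and no scaling between arrays. The deposited series table was used for gene symbols only. Its 39 value columns hold the authors' log2 fold changes within time points, and they were not used. The column at 0 throughout, the reference, is an LFC array at 9 time labels and the one named HFC at Day 14, and there is none at Week 6. The Day 14 arrays were grouped as their labels say.

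Signals were taken as log2 minus the 75th percentile of the array, outlier spots were dropped and the spots of a probe averaged. Probes well above background on at least 6 arrays with at least 20 values were kept (34043 probes of 24723 genes). An additive fit of diet and time label over all arrays was made with limma 3.58.1 in R 4.3.3, with Benjamini-Hochberg adjusted p at 0.05, and correlations were computed in Python 3.11.15. The scripts were checked on simulated data. Genes are named by 3 rules. These are the 10 clock genes, the 19 further clock genes, and the 5 other genes at each end of the r with the phase index. The genes, lists and rules were chosen with earlier results of these data known. Arrays have no read depth, and their number limits the precision.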

Additional observations from a re-analysis of the deposited data

Results flagged for a closer look

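In 44 sets of a gene or index in LFC, HF5, HF20 or HF75, the gap of the highest or lowest array to its neighbour was compared with the range. HFC, with 11 arrays, was not checked. Chance marks about 1 in 20 such sets, and 4 of the 44 stood out. Arntl on HF20 Week 12 was -4.60, with the next lowest HF20 array at -1.85, and the phase index of the same array was 3.09, with the next at 0.27. Dbp on that array was 5.79, the highest in HF20, and its title carries BA or BAT. Clock on HF20 Week 15 was -2.04, with the next lowest at -0.16, on the array with 71.4% of spots dropped. Nr1d1 on LFC Day 6 was 2.72, with the next highest LFC array at 0.94, and its title too carries BA or BAT. Per1 (3.36) and Cry2 (0.68) also had their highest value of all arrays there. What sets these arrays apart was not tested.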

How the results depend on the processing

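For the diet comparisons, 0 of the 10 clock genes passed under each of 27 alternatives (scaling, background, dropped spots, probe choice, filters, weights, blocks, the methods' t-test and arrays or time labels left out). Time labels were numbered alike in all diets, but HFC and LFC arrays of a label deviated together at 5 of 10 labels only (r over 0.1). That r ran from -0.54 to 0.81, so whether a label pairs its arrays is not settled. The main fit kept time label as a block. With no replicate block the count was also 0 in each comparison. Across time labels the count moved from 0 to 1 without the BA or BAT arrays, to 1 without Week 9 (0 to 1 when each label was left out) and to 5 with array weights, where 20224 of 34043 probes passed; the gene was Cry1 in the first cases. The r of Arntl with Dbp stayed negative in 24 alternatives and was from -0.66 to -0.52 when each time label was left out. With quantile normalization it was -0.36 (adjusted p = 0.0621), the only alternative past the threshold no more. The count of pairs, 24, moved to 8 with the mean of all probes (6 shared), 10 without arrays with over 10% of spots dropped (10 shared), 12 without BA or BAT arrays (11 shared) and 11 after centring on scan dates (9 shared), and was from 11 (without Week 12) to 25 when each label was left out. Normexp background correction gave 29 pairs, 16 of them shared, and turned the sign of 3 of these (Per3 with Arntl, Nr1d2 and Dbp). The median index difference of HFC from LFC was 0.04, and from 0.03 to 0.18 in 18 alternatives. Of 1290 values of single genes 92 took the other sign and 7 passed the threshold newly. The regressions on the adipocyte list and on the 75th percentile were added after seeing the data. Signal over background limits Per3 and Cry1, well above it on 16 and 20 arrays.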
